A study of Rattus norvegicus with 2 samples.

Results

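The pyruvate dehydrogenase complex, its kinases and its phosphatases were examined in the myocardium of spontaneously hypertensive rats, an inbred strain with inherited high blood pressure. The set was chosen by gene name and held 10 genes, of 13706 protein-coding genes listed in either library: the kinases Pdk1, Pdk2, Pdk3 and Pdk4, the phosphatases Pdp1 and Pdp2, and the complex genes Pdha1, Pdhb, Dlat and Pdhx. Earlier results of these data were known when the set was chosen, which limits every count set beside the share of all genes. All 10 were listed in both libraries, so none was taken as 0 reads, and all 10 passed the minimum mean of 1 RPKM (reads per kilobase of gene length and per 1000000 reads of the table). The hypertensive rats received KXH, the high dose of the herbal Jiangya Kangxian formula (9.6 g/kg, given into the stomach), or distilled water, each for 12 weeks. Each group was 1 library of total myocardial RNA, and the labels state neither the age of the animals, nor whether a library was a pool, nor which chamber of the heart was taken. The study's title names cardiac remodelling and mitochondrial dysfunction as its interest.

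Pyruvate dehydrogenase is the mitochondrial enzyme complex that turns pyruvate into acetyl-CoA and so joins glycolysis to the tricarboxylic acid cycle. Pyruvate dehydrogenase kinases phosphorylate the E1 alpha subunit and switch the complex off, and pyruvate dehydrogenase phosphatases remove the phosphate and switch it on again. In heart muscle, which can burn fatty acids or glucose, this cycle helps set which fuel is oxidised, and transcription of Pdk4 is known to follow fatty acid supply through peroxisome proliferator-activated receptors (PPARs). Transcript levels do not show the phosphorylation state of the complex, which was not measured.

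The count columns held 14.1 M reads with KXH and 15.1 M with water (M, 1000000). A single library per group allows no test between the treatments, and "higher" and "lower" describe these 2 libraries. Intervals are 95% exact intervals that cover counting error only. They treat each read as its own molecule, which these libraries cannot show, and hold no variation between animals. The median RPKM ratio of KXH over water was 0.985 over the 10467 genes whose mean reached 1 RPKM. It was 0.991 over the 4619 genes that had 1000 or more reads in both libraries together, which include all of the 10 genes except Pdk3.

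In the KXH library, the kinase Pdk4 and the phosphatase Pdp2 were below their levels in the water library, 1.38-fold and 1.23-fold, whereas the phosphatase Pdp1 was 1.09-fold higher. Pdk1, Pdk2, Pdha1 and Pdhb were lower by 1.05 to 1.09 times, and for Dlat, Pdhx and Pdk3 the interval of the ratio held 1. At least 1.2-fold lower were 2 of the 10 genes, beside 12.1% of all genes whose mean reached 1 RPKM, and at least 1.2-fold higher was 1 gene (Pdk3, on few reads), beside 7.50%. The interval lay below 1 for 6 of the 10 genes, beside 16.3% of all genes, and above 1 for 1 gene, beside 11.2%. Among the genes with at least 1000 reads, where counting error is smaller, these shares were 3.51% for at least 1.2-fold lower, 2.12% for at least 1.2-fold higher, 21.3% for an interval below 1 and 15.4% for an interval above 1. Whether an interval excludes 1 also depends on the number of reads. Pdk1, Pdk2, Pdha1 and Pdhb had 9794 to 45275 reads in both libraries together. No share here or for the gene lists below is matched for read number, so the interval counts do not show an excess in this set.

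**Figure D1:**
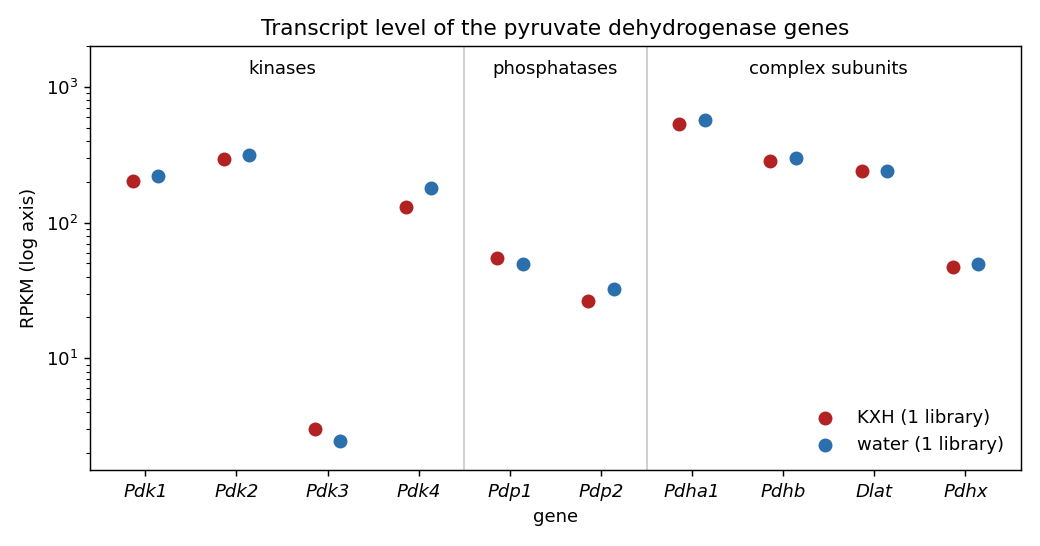
Level of each of the 10 genes in RPKM on a log axis, with 1 point for KXH (left of each pair) and 1 for water (right). Pdha1 is the highest gene and Pdk3 the lowest in both libraries, and the wider gaps between the points of a pair are at Pdk4, Pdk3 and Pdp2.

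The 4 kinases differ in tissue distribution and in how they are induced. Pdk4, the kinase induced by fasting and by fatty acids, reached 129 RPKM with KXH and 179 RPKM with water, from 2589 reads with KXH and 3845 with water. The ratio was 0.723 (0.688 to 0.760), which is 1.38-fold lower in the KXH library. Of the 4619 genes with at least 1000 reads, 20 had a lower ratio than Pdk4 and 4598 a higher one.

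Pdk2, the broadly expressed isoform, was the most abundant kinase transcript, at 294 RPKM with KXH and 314 RPKM with water (8852 reads with KXH and 10166 with water; ratio 0.935, 0.909 to 0.962). Pdk1, which is known to be induced by hypoxia, followed at 204 RPKM with KXH and 221 RPKM with water (4523 reads with KXH and 5271 with water; ratio 0.922, 0.886 to 0.959). Both kinases were slightly lower in the KXH library, by 1.07 and 1.09 times, and 1089 and 865 of the 4619 genes had lower ratios than they did. Pdk3, an isoform with a narrow tissue distribution, was at 3.03 RPKM with KXH and 2.46 RPKM with water. These levels rest on 94 reads with KXH and 82 with water, the ratio of 1.23 had a counting interval of 0.906 to 1.68, and no difference was detectable at this depth.

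**Figure D2:**
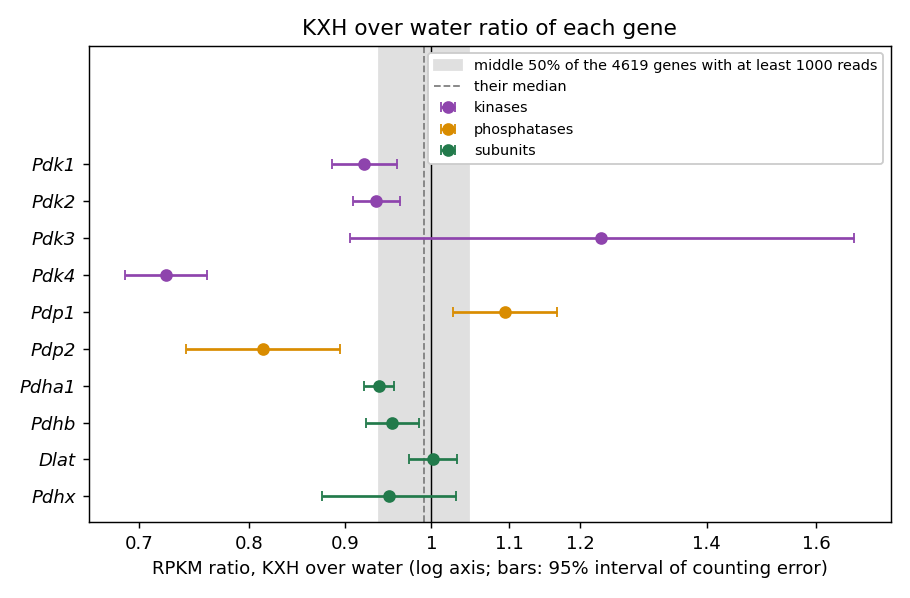
RPKM ratio of KXH over water for each gene on a log axis, coloured by role, with 95% intervals of counting error. The grey band spans the middle 50% of the 4619 genes with at least 1000 reads (0.938 to 1.05) and the dashed line is their median of 0.991. The intervals of Pdk4 and Pdp2 end below the band, at 0.760 and 0.894.

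The promoter sequences of Pdk4 and Pdk2 are shown because these were the kinase farthest apart between the libraries and the most abundant one. They are the 250 bases before the gene start in RefSeq, assembly GRCr8, on the gene's own strand, 5′ to 3′, with matches to the searched motifs in capitals. The Pdk4 window lies at chr4:34568330-34568579 on the minus strand and the Pdk2 window at chr10:80483913-80484162, also on the minus strand.
Pdk4: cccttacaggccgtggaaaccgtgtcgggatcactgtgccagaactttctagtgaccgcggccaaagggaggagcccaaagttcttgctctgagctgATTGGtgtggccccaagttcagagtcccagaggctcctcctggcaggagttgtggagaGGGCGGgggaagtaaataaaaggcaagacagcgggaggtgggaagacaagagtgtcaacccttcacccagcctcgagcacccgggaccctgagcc
Pdk2: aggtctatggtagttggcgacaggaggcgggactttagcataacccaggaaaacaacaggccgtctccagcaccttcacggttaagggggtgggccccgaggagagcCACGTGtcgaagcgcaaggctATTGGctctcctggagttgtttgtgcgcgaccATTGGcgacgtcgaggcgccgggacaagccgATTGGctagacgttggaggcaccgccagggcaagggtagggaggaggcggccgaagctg
The 6 motifs searched on both strands were AGGTCA, the hexamer of nuclear receptors, then GTAAACA, read by forkhead factors, then TATAAA of core promoters. The others were CCAAT, known for binding NF-Y, then the GC box GGGCGG, and last the E-box CACGTG. No matches overlap here. The Pdk4 window held 1 CCAAT and 1 GC box. The Pdk2 window held CCAAT at 3 places, read as ATTGG on the strand shown, and 1 E-box. Of 33469 rat promoter windows of the same length, 34.0% held CCAAT, 30.5% a GC box, 5.59% an E-box, 14.1% the nuclear receptor hexamer, 3.21% the forkhead motif and 12.9% TATAAA. Of the 10 genes, 8 had an entry; among these the hexamer was found in the window of Dlat and the forkhead motif in that of Pdhb. A match describes letters only, and binding was not measured.

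Ratios between kinases inside a library do not depend on the library total used for scaling. There were 0.440 Pdk4 RPKM per Pdk2 RPKM with KXH and 0.569 in the water library, and the odds ratio of the reads was 0.773 (0.730 to 0.819). Against Pdk1 the odds ratio of Pdk4 was 0.785 (0.736 to 0.837). Pdk2 against Pdk1 gave 1.01 (0.966 to 1.07), so these 2 kinases held the same proportion within counting error.

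The composition of the kinase pool differed accordingly. Pdk4 made up 20.5% of the summed kinase RPKM with KXH and 25% with water. Pdk2 made up 46.6% with KXH and 43.8% with water, Pdk1 32.3% with KXH and 30.8% with water, and Pdk3 less than 1% in each. The summed kinase level was 629 RPKM with KXH and 716 RPKM with water, a ratio of 0.879. Without Pdk4 it was 500.1 RPKM with KXH and 537 RPKM with water, a ratio of 0.931.

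**Figure D3:**
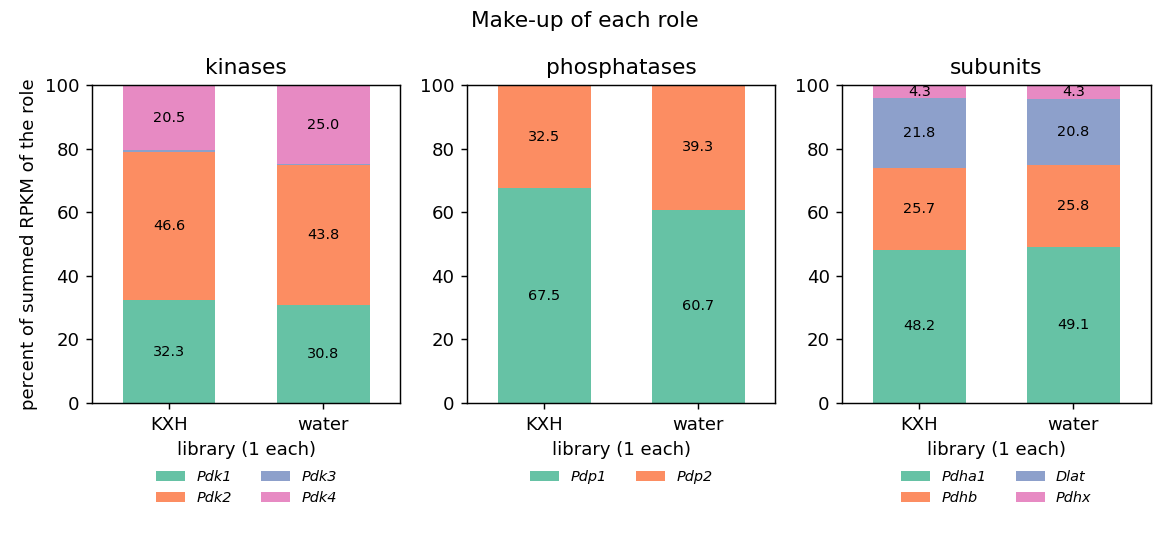
Make-up of the summed RPKM of the kinases, the phosphatases and the complex subunits in percent, with the KXH library as the left bar and the water library as the right bar of each panel (1 library each). Pdk4 takes 20.5% of the kinase sum with KXH and 25% with water, Pdp1 takes 67.5% of the phosphatase sum with KXH and 60.7% with water, and the subunit shares lie within about 1 percentage point of each other. Pdk3 is the thin band under Pdk4.

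The 2 phosphatases lay on opposite sides of the water level. Pdp1, the calcium-activated phosphatase of muscle, was at 54.7 RPKM with KXH and 49.9 RPKM with water (1935 reads with KXH and 1899 with water). Its ratio was 1.09 (1.03 to 1.17), and 545 of the 4619 genes with at least 1000 reads had a higher one. Pdp2, which does not need calcium, was at 26.3 RPKM with KXH and 32.3 RPKM with water (782 reads with KXH and 1032 with water), with a ratio of 0.814 (0.741 to 0.894), and 111 of the 4619 genes had a lower one.

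The phosphatase sum was nearly equal in the libraries, at 80.95 RPKM with KXH and 82.3 RPKM with water, a ratio of 0.984, while its make-up was not. There were 2.08 Pdp1 RPKM per Pdp2 RPKM with KXH and 1.55 with water, with an odds ratio of 1.34 (1.2 to 1.51). Per phosphatase RPKM there were 7.77 kinase RPKM with KXH and 8.70 with water, and the odds ratio of the summed reads was 0.895 (0.845 to 0.947). The ratio of Pdk4 to Pdp1 was 2.36 with KXH and 3.58 with water (odds ratio 0.661, 0.609 to 0.717).

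The subunit genes were abundant and close to each other in ratio. Pdha1, which encodes the E1 alpha subunit that the kinases phosphorylate, was at 534 RPKM with KXH and 569 RPKM with water (21107 reads with KXH and 24168 with water; ratio 0.938, 0.921 to 0.956). Pdhb, the E1 beta subunit, was at 284 RPKM with KXH and 298 RPKM with water (7143 reads with KXH and 8045 with water; ratio 0.954, 0.924 to 0.985). Both intervals ended below 1, but the ratios of 1150 and 1453 of the 4619 genes were lower still.

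Dlat, the E2 acetyltransferase that forms the core of the complex, was at 241 RPKM in both libraries (8828 reads with KXH and 9459 with water; ratio 1.00, 0.974 to 1.03). Pdhx, the protein that tethers the E3 enzyme to the core, was at 47.2 RPKM with KXH and 49.7 RPKM with water (1101 reads with KXH and 1245 with water; ratio 0.95, 0.875 to 1.03). The reads of Pdha1 against Dlat gave an odds ratio of 0.936 (0.904 to 0.969) and those of Pdhb against Dlat 0.951 (0.911 to 0.993), so both E1 genes were lower relative to the core gene in the KXH library. Pdha1 against Pdhb gave 0.984 (0.948 to 1.02), and Dlat against Pdhx 1.06 (0.967 to 1.15). Pdhx was less abundant than Dlat by 5.12 times in the KXH library and 4.85 times in the water library.

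Summed over the 4 subunit genes, the level was 1106 RPKM with KXH and 1157 RPKM with water, a ratio of 0.956. The kinase sum per subunit RPKM was 0.569 with KXH and 0.618 in the water library, with an odds ratio of the reads of 0.932 (0.909 to 0.956). Pdk4 alone accounted for 0.117 RPKM per subunit RPKM with KXH and 0.154 in the water library. Pdk2 per Pdha1 RPKM was 0.550 with KXH and 0.552 in the water library, with an odds ratio of 0.997 (0.964 to 1.03). The median log2 ratios, on the log2(RPKM + 1) scale, were -0.11 for the kinases, -0.08 for the phosphatases and -0.07 for the subunits, beside -0.02 over all genes whose mean reached 1 RPKM. The medians of the roles were thus close together, but a median of 4 kinases does not follow Pdk4 alone. That of the phosphatases lies between 2 opposite values. Pdk4 stood apart among the kinases, and the 2 phosphatases differed from each other, with Pdp2 farther from the water level than Pdp1. The subunit ratios ran only from 0.938 to 1.00.

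In order of level per length, the genes ran Pdha1, Pdk2, Pdhb, Dlat, Pdk1, Pdk4, Pdp1, Pdhx, Pdp2 and Pdk3 in both libraries. Neighbours whose counting intervals overlapped were Pdk2 and Pdhb in the KXH library and Pdp1 and Pdhx in the water library.

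**Figure D4:**
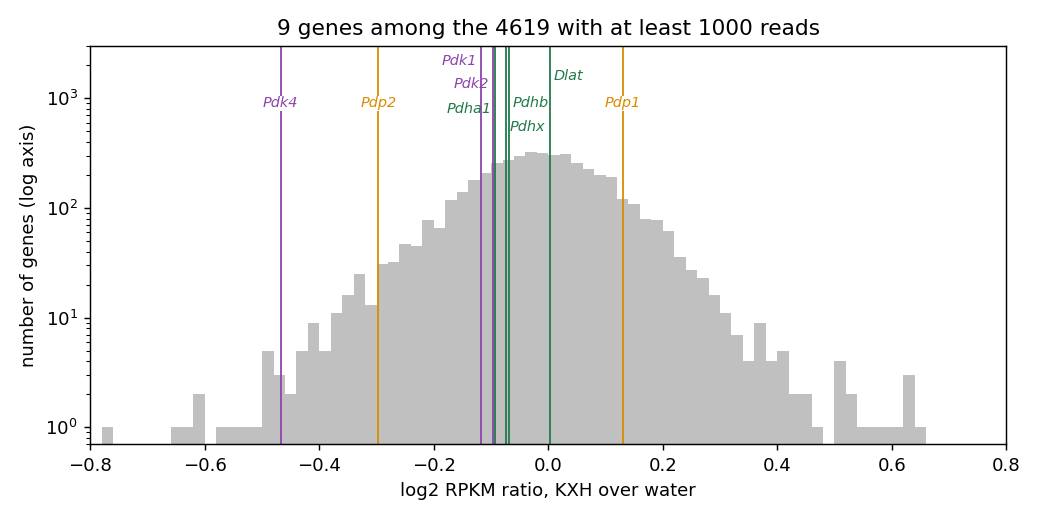
Log2 RPKM ratio of KXH over water for the 4619 genes with at least 1000 reads (bars, number of genes on a log axis), with lines at 9 of the 10 genes; Pdk3 had too few reads and 8 genes lie outside the plotted range. Pdk4 lies in the low tail with 20 genes below it, and Pdp2 has 111 below it. Of the subunits, Dlat lies near the centre. Pdha1, Pdhx and Pdhb lie below the centre, with 1150, 1383 and 1453 genes lower.

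The deposited tables also give the percent of each gene's length covered by reads, and how it was computed is not given in the sources used here. For 8 of the 10 genes it differed by at most 6.02 percentage points. Pdhb was covered over 83.3% of its listed length of 1787 bases with KXH and 99.2% with water, although its reads were nearly as many. Pdhx, with a listed length of 1660 bases, was covered over 68.7% with KXH and 81.1% with water. Both subunits were thus less covered in the KXH library, by 15.8 and 12.4 points, and they were singled out after their values were seen. Of the 4619 genes with at least 1000 reads, 20 (0.433%) were covered at least 10 points less in the KXH library, Pdhb and Pdhx among them, and 11 (0.238%) at least 10 points more. The RPKM of a gene divides by the whole listed length in both libraries, and whether uncovered stretches affected the levels of Pdhb and Pdhx was not tested.

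**Figure D5:**
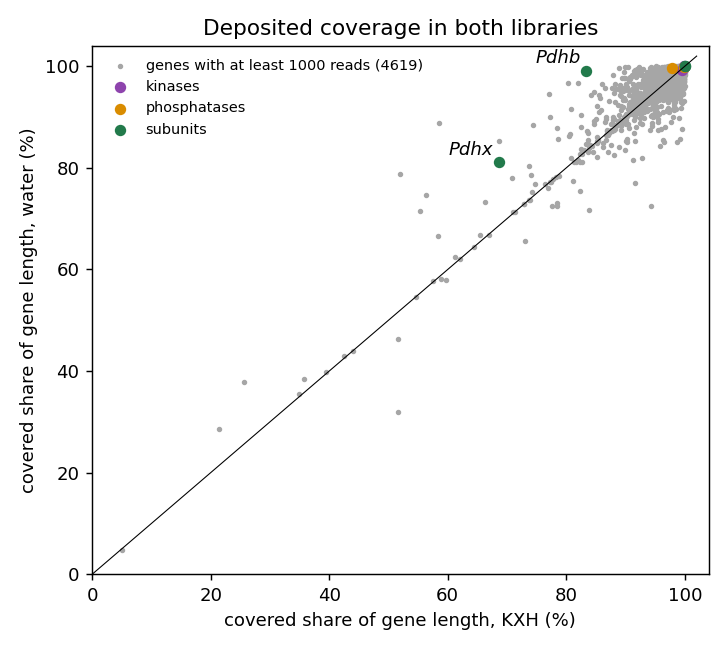
Covered share of gene length in the KXH library (horizontal axis, percent) and in the water library (vertical axis, percent) for the 4619 genes with at least 1000 reads, with 9 of the 10 genes coloured by role. Pdhb (83.3% in the KXH library, 99.2% in the water library) and Pdhx (68.7% with KXH, 81.1% with water) lie above the diagonal, and the other 7 lie near it at the upper right corner.

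Genes that complete the complex, regulate its phosphatase or attach its lipoyl groups were examined next. Dld, the E3 subunit shared with other complexes, was at 217 RPKM with KXH and 228 RPKM with water (ratio 0.952, 0.924 to 0.982), near Pdhb. Pdpr, the regulatory partner of the phosphatase, had a ratio of 1.02 (0.970 to 1.08), the lipoate synthase Lias 0.978 (0.890 to 1.07) and the lipoyl transferase Lipt2 0.747 (0.506 to 1.1) on 48 reads with KXH and 69 with water. Of the 5 measured genes of the 7 listed, 0 had an interval above 1 and 1 (Dld) below, beside 11.2% and 16.3% of all genes, which are also the shares for the lists that follow.

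Among 9 genes of the related 2-oxoacid dehydrogenases and their regulators, the interval lay below 1 for 4 and above 1 for 0, with a median log2 ratio of -0.02. When ratios were centred on the median of all genes, Ogdh and Bckdk no longer had an interval below 1. The members farthest from the water level were Ogdhl, a relative of the 2-oxoglutarate dehydrogenase E1 (ratio 0.721, 0.628 to 0.826; 7.11 RPKM with KXH and 9.86 RPKM with water), and Dbt, the E2 of branched-chain oxoacid oxidation (0.880, 0.832 to 0.931). The branched-chain kinase Bckdk was at 0.933 (0.883 to 0.986) and Dhtkd1 at 1.04 (0.856 to 1.25). Ogdh and Dlst, the abundant E1 and E2 of 2-oxoglutarate oxidation, had ratios of 0.983 and 1.00.

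Of 16 genes of pyruvate supply and use, the interval lay above 1 for 3 and below 1 for 5, with a median log2 ratio of -0.04. The 3 were monocarboxylate transporters, which carry lactate and pyruvate across the cell membrane. Slc16a1 was at 191 RPKM with KXH and 166 RPKM with water, with a ratio of 1.15 (1.11 to 1.19). Slc16a7 had a ratio of 1.31 (1.02 to 1.69) and Slc16a3 one of 2.62 (1.58 to 4.45), both at low levels, and Slc16a3 rested on 56 reads with KXH and 23 with water. The mitochondrial pyruvate carrier genes Mpc1 and Mpc2 had ratios of 0.978 (0.942 to 1.02) and 1.02 (0.941 to 1.1). Lactate dehydrogenase Ldha was at 0.892 (0.871 to 0.912), pyruvate kinase Pkm at 0.906 (0.888 to 0.923) and the alanine aminotransferase Gpt at 0.871 (0.761 to 0.998), the last with an interval that holds 1 after centring. Citrate synthase (Cs), which uses the acetyl-CoA that the complex makes, was at 0.993 (0.971 to 1.02).

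Genes listed as regulators of Pdk genes had a median log2 ratio of 0.00 over 21 measured genes of 23 listed. The interval lay above 1 for 4 and below 1 for 1. Sirt3, a mitochondrial deacetylase rather than a transcriptional regulator, was counted among the 21. The coactivators Ppargc1a and Ppargc1b, at ratios of 1.12 (1.05 to 1.19) and 1.25 (1.16 to 1.35), and the nuclear receptors Nr4a1 (1.11, 1.03 to 1.19) and Ppara (1.08, 1.01 to 1.15) were higher in the KXH library. Ppara was at 62.8 RPKM with KXH and 58.4 RPKM with water. The forkhead factor Foxo1 was lower, at 32.2 RPKM with KXH and 35.7 RPKM with water (ratio 0.903, 0.835 to 0.978). Its relatives Foxo3 and Foxo4 had ratios of 0.916 (0.836 to 1.004) and 0.997 (0.923 to 1.08). Whether any regulator of this list bears on the Pdk4 ratio was not tested. Srebf1 had a ratio of 1.12 with a counting interval of 0.983 to 1.29. At least 1.2-fold lower were 0 regulators of this list, beside 12.1% of all genes, and at least 1.2-fold higher was 1 (Ppargc1b), beside 7.50%.

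Other PPAR targets did not share one direction. Of 23 measured genes of 26 listed, the interval lay above 1 for 6 and below 1 for 5, and the median log2 ratio was -0.01. The 4 genes farthest from the water level were lower, namely the fatty acid transporter Cd36 (ratio 0.546, 0.531 to 0.560), Ucp3 (0.708, 0.606 to 0.825), Angptl4 (0.702, 0.479 to 1.02) and Txnip, a brake on glucose uptake (0.794, 0.774 to 0.813). These 4, beside 12.1% of all genes, were the genes of the list at least 1.2-fold lower. Cd36 was covered over 83.4% of its listed length with KXH and 99.4% with water. Whether uncovered stretches affected the level of Cd36 was not tested. Ucp2 (1.18, 1.12 to 1.25), the fatty acid binding protein Fabp3 (1.1, 1.08 to 1.11) and the dehydrogenases Acadl (1.08, 1.06 to 1.09) and Acadm (1.05, 1.02 to 1.07) were higher. With 2 libraries, likeness to Pdk4 can be judged only by the ratio; the genes with at least 1000 reads nearest to it were Ap1s2 (0.723), Gpr22 (0.720) and Scn7a (0.714).

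Marker genes of the cell types of the heart are given next, because several differed between the libraries. For all marker lists, the shares of all genes to set beside them are 11.2% for an interval above 1 and 16.3% for one below 1. The summed level of 8 cardiomyocyte markers was 48465 RPKM with KXH and 45694 RPKM with water, a ratio of 1.06, with 5 of 8 higher. The interval lay above 1 for 5 and below 1 for 3. The lowest cardiomyocyte marker, Ryr2, was at 598 RPKM with KXH and 607 RPKM with water. Endothelial markers were lower for 8 of 8 genes (451 RPKM with KXH and 508 RPKM with water), with the interval below 1 for 7. Smooth muscle and pericyte markers were lower for 7 of 7 measured (392 RPKM with KXH and 448 RPKM with water), with the interval below 1 for all 7. Erythroid markers were lower for 5 of 5 measured (2274 RPKM with KXH and 3343 RPKM with water, nearly all Hbb), with the interval below 1 for 3. Macrophage markers were lower for 5 of 8 (274 RPKM with KXH and 288 RPKM with water), with the interval below 1 for 2 and above 1 for 1. Fibroblast markers were higher for 7 of 8 (915 RPKM with KXH and 818 RPKM with water), with the interval above 1 for 6. Atrial markers were higher for 3 of 4 measured (874 RPKM with KXH and 560 RPKM with water, nearly all Nppa), with the interval above 1 for those 3. Apart from Nppa they had few reads. Myl4 had 74 with KXH and 47 with water, Sln 48 and 32, and Myl7, which was lower, 13 and 21. Bmp10, below the minimum mean, had 2 reads with KXH and 7 with water. Of the 7 skeletal muscle markers, Myh4 and Tnni2 were listed in neither library, and Myh1, Myh2 and Actn3 had at most 6 reads per library. Tnnt3 had 23 reads with KXH and 28 with water, and Ckm, which heart muscle also expresses, was at 1144 RPKM with KXH and 1183 RPKM with water (ratio 0.967). Of the 8 adipocyte markers, Adipoq and Retn were listed in neither library, and Plin1, Lep, Cidec and Ucp1 had at most 5 reads per library. The other two went in opposite directions, with Cfd at 13.9 RPKM with KXH and 10.1 RPKM with water (ratio 1.37, 1.08 to 1.74) and Cidea at 38.8 RPKM with KXH and 47.4 RPKM with water (ratio 0.818, 0.721 to 0.928). In bulk tissue, fewer cells of a type and less RNA per cell cannot be told apart, and the part of cell composition in the Pdk4, Pdp1 and Pdp2 ratios was not tested.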

How the data were processed

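Myocardial total RNA of hypertensive rats given KXH or water was compared, with 1 library per group. Groups follow the agent named in the labels. The authors' deposited protein-coding tables give whole read counts per gene, described as unique per the file headers, and RPKM values. The deposited RPKM equals the count per kilobase of listed length and per 1000000 reads of the table's total, checked to a relative difference of 1e-09. A deposited percent of covered length (an unnamed measure, at times slightly above 100) was also used. Genes not listed were taken as 0 reads, although whether an unlisted gene was in the annotation is not stated. The submitters' processing notes name the rn6 assembly and Bowtie 0.12.2 without a role; annotation, counter and strand use are not stated in any source used. The lncRNA tables were not used. Reads that match related genes or pseudogenes can be lost where only unique reads are kept, and without strand, antisense reads cannot be told apart.

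For each gene, the RPKM ratio (KXH over water) was given an exact Clopper-Pearson 95% interval on the share of reads from KXH, level intervals were exact Poisson, and pairs of genes were compared by the conditional odds ratio with its exact interval. Log2 ratios had 1 added to each RPKM. No test was possible. The 10 genes and the gene lists were chosen with earlier results of these data known. From each list, up to 4 genes whose mean reached 1 RPKM, farthest from 0 were named, with the 3 genes nearest to Pdk4; further list genes were named after their values were seen. Alternatives were other pseudocounts, scalings, filters, thresholds and a length trend removed. Poisson counts were simulated for 13706 genes, with 200 of the genes with at least 1000 reads changed 1.5-fold. The median recovered fold was 1.49 in each direction, and the interval held the true ratio for 95.5% of the changed genes. The simulated counts follow the counting model of the interval, so this checks the calculation only. It does not cover genes with few reads, duplicate reads or variation between animals. Computations used scipy 1.17.1, numpy 2.4.6 and pandas 2.3.3 under Python 3.11.15, and figures matplotlib 3.10.9.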

Additional observations from a re-analysis of the deposited data

How the results depend on the processing

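The direction of the 10 ratios, of the 3 role medians, of the 5 list medians and of the 5 within-library ratios was compared under 6 alternatives of pseudocount, scaling and length correction (reads in place of RPKM for the within-library ratios). No ratio whose counting interval excluded 0 on the log2 scale changed sign. The medians had no interval of their own. Each was compared with the median distance from middle to end of its genes' log2 intervals, and no median farther from 0 than that changed sign. Of the list medians, that of the related dehydrogenases was -0.02 as reported and 0.0076 with the length trend removed, and that of the PPAR targets was -0.01 as reported and 0.0061 with centring on the median of all genes, so neither has a firm sign. The same centring moved the count of regulators with an interval above 1 to 6 (adding Esrra and Esrrg) and of PPAR targets to 9, against 4 and 6 as reported, and that of related dehydrogenases below 1 to 2, against 4. After this centring the interval lay above 1 for 14% and below 1 for 13.3% of all genes whose mean reached 1 RPKM, against 11.2% and 16.3% as reported. The log2 ratio of Pdk4 was -0.46 as reported and ranged from -0.47 to -0.44. That of Pdha1 was -0.09 as reported and -0.06 with the length trend removed, which is outside its counting interval. The kinase median ranged from -0.11 to -0.09 and the subunit median from -0.07 to -0.05. Requiring 1.5-fold left 0 genes higher and 0 lower, against 1 and 2 at 1.2-fold, and a minimum mean of 10 RPKM left 0 higher, because Pdk3 drops out. The counts of genes with an interval outside 1 stayed at 1 higher and 6 lower under median centring, upper quartile scaling, both filters and a 99% interval. No paired analysis was possible because each group was 1 library and the labels give no replicate numbers. Leaving out a library was not possible for the same reason. Few reads limit Pdk3, Lipt2, Slc16a3 and Angptl4, and the absence of replicates limits every ratio, since no interval holds variation between animals.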
